A study of Bos taurus with 28 samples.

Results

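Of the 28054 bovine transcripts listed in each library, 172 (0.613%) were abundant and even in level through the first weeks of the conceptus, from day 7 to day 19. They were chosen by 2 conditions on their own values. A transcript had to reach at least 100 RPKM (reads per kilobase of a transcript's length, relative to all reads of the library) in every replicate, and its highest day median had to be under 2 times its lowest. Only the first condition asks for the level in each replicate; the second looks at day medians alone. Levels and differences between day medians are therefore given here as a description of what was chosen, without a test.

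The study sequenced messenger RNA of the whole bovine conceptus, which is the embryo together with the membranes it forms. Conceptuses came from synchronised crossbred beef heifers, all inseminated with semen of 1 bull. They were taken as blastocysts on day 7, as hatched spheres on day 10, as ovoid conceptuses starting to elongate on day 13, as filaments at the time of maternal recognition of pregnancy on day 16, and as filaments at the start of implantation on day 19. No treatment, allele or other genotype was compared, and every group is an untreated stage of normal development. A sample of day 7 or day 10 was a pool of 5 embryos from superovulated heifers, and a sample of day 13, 16 or 19 a single conceptus, per the labels' protocols. The sample characteristics of day 13 state superovulation and a pool instead, so these labels disagree. Polyadenylated RNA was taken directly on days 7, 10 and 13, and after an extraction of total RNA on days 16 and 19. How RNA was prepared cannot be told apart from the change of stage between days 13 and 16, and by the protocols the same holds for pooling and superovulation between days 10 and 13.

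The 28 libraries held 473552 to 10871501 reads and gave 24 replicates, which were 5, 7, 5, 3 and 4 for days 7, 10, 13, 16 and 19. The files of 3 libraries bear titles that belong to samples of other days, and these were kept out of the choice: day 7 replicate 6, day 16 replicate 5 and day 19 replicate 5. Day 16 replicates 2 and 3 were averaged as 1 replicate. Between them, the reads of the 172 transcripts gave a chi-square of 1.83 on average (about 1 is due to sampling noise), while every other pair of replicates of 1 day gave 16.21 or more. A pair of libraries stood apart. In day 7 replicate 5 and day 10 replicate 7 a single transcript of 92 nucleotides, ENSBTAT00000042502, held 34.3% and 38.4% of the reads, against at most 5.11% in the other libraries. Replicate numbers within a day are names only, and the heifer of each sample is not named.

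Transcripts that are abundant in every tissue and stage are often called housekeeping transcripts. They are commonly those of ribosomal proteins, translation factors, chaperones, the cytoskeleton and energy metabolism, which every living cell needs, and they are often taken as references for measurements by PCR. An even RPKM means an even share of the sequenced RNA. It does not give the amount per cell or per conceptus, which in cattle grows greatly as the trophoblast elongates, and in whole conceptuses fewer cells of a type and less RNA per cell cannot be told apart. The files do not pair the identifiers with gene names, and 0 of the 28054 matched the gene table supplied. Which of these functions the 172 transcripts serve was therefore not analysed here, no sequence could be shown, and members are named by identifier.

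The floor of 100 RPKM left few candidates. Of the 28054 transcripts, 25346 had a read in some library and 8556 had a value above 0 in all 24 replicates. For 571 every day median reached 100 RPKM, and 363 of these had day medians within 2-fold. A single low replicate or more cost 191 of the 363 their place. Seen the other way, 277 transcripts were at the floor in every replicate, of which 172 (62.1%) had day medians within 2-fold and 105 did not. These 105, abundant on every day but less even, serve below as the nearest group for comparison. The plot of lowest replicate against day ratio shows that neither limit falls in a gap.

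**Figure D1:**
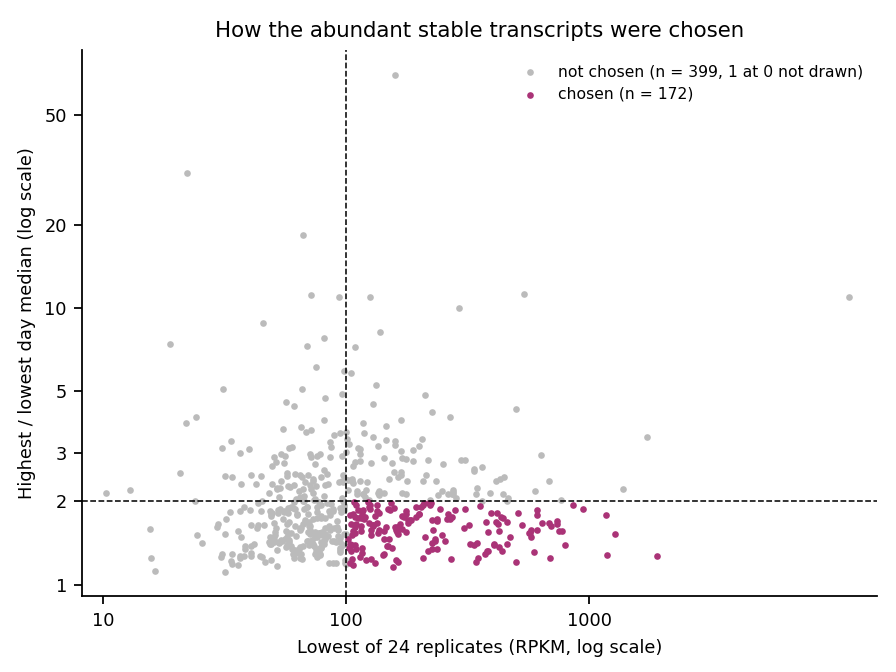
Each point is 1 of the 571 transcripts whose median was at least 100 RPKM on every day; the x axis (log scale) is its lowest value among 24 replicates in RPKM and the y axis (log scale) the ratio of its highest to its lowest day median. The 172 chosen transcripts fill the lower right field, and points lie densely on both sides of both dashed limits; 1 transcript with a replicate at 0 is not drawn.

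Values at the limits were close together. The chosen transcripts nearest the ratio limit were ENSBTAT00000000486, with a highest to lowest day median ratio of 1.99, and ENSBTAT00000024299, also 1.99. Nearest outside stood ENSBTAT00000016712 and ENSBTAT00000021704, with ratios of 2.01 each. At the floor, the lowest values inside were 101.6 RPKM for ENSBTAT00000021397 and 102.6 RPKM for ENSBTAT00000018091, both in day 10 replicate 7. Just outside were ENSBTAT00000006992 at 99.96 RPKM and ENSBTAT00000027379 at 99.71 RPKM, both in day 7 replicate 5. All 4 of these floor values thus came from the pair of libraries in which the 92-nucleotide transcript held over 30% of the reads.

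The level of a member, taken as the mean of its 5 day medians, ran from 144 to 3506 RPKM with a median of 443 RPKM. It was at least 1000 RPKM in 46 members and at least 2000 RPKM in 13. The median over the 19186 transcripts tested in the series was 6.31 RPKM, and over the 105 less even abundant transcripts 497 RPKM. Members were shorter than most: their median length was 912 nucleotides (102 to 4446), against 1150 for the 105 and 1677 for all tested. In all, 19 members were under 500 nucleotides and 96 under 1000.

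The ratio of highest to lowest day median ran from 1.16 to 1.99 with a median of 1.62. It was under 1.5 in 57 members and under 1.25 in 15. Over the 14295 tested transcripts with a median above 0 on every day the median ratio was 2.53, and in the 105 less even abundant transcripts it was 2.56 with a highest value of 69.6. Where within the range of days a member was highest was not evenly spread. Day 13 had the highest median in 69 members and day 19 in 44, while days 7, 10 and 16 had it in 11, 22 and 26. Day 7 had the lowest median in 81 members and day 16 in 45, while days 10, 13 and 19 had it in 10, 20 and 16. The commonest pairs were lowest on day 16 with highest on day 13 (31 members), lowest on day 7 with highest on day 19 (28) and lowest on day 7 with highest on day 13 (27).

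These day orders depended on how libraries were scaled to each other. With TMM factors, which align the bulk of transcripts between libraries, day 19 had the highest median in 133 of the 172 members and day 7 the lowest in 113. With median-of-ratios factors the same counts were 78 and 93. Leaving the 92-nucleotide transcript out of the library totals gave 43 and 79. Of the 172 members, 102 still had day medians within 2-fold after TMM scaling, 146 after median-of-ratios scaling and 168 without the 92-nucleotide transcript. After TMM scaling the median member stood at 0.730 times its own mean on day 7 and 1.32 times on day 19, where the deposited values gave 0.854 and 1.04.

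Among the most abundant members, ENSBTAT00000036888 (1831 nucleotides) had the highest level. On day 7 its 5 replicates read 2755, 3071, 4065, 3058 and 1891 RPKM. On day 10 the lowest, median and highest of 7 were 1915, 3646 and 5863 RPKM. Day 13 gave 3403, 3383, 3377, 3768 and 4851 RPKM, day 16 gave 3882, 3543 and 4066 RPKM, and day 19 gave 3616, 4319, 3464 and 3419 RPKM. The days overlapped throughout: the highest day median was 1.27 times the lowest, while the 7 replicates of day 10 alone spanned over 3-fold.

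ENSBTAT00000008132 (1955 nucleotides) was the next in level. Day 7 gave 2121, 2244, 3409.5, 1659 and 1176 RPKM, and day 10 ran from 1347 over a median of 3525 to 4010.1 RPKM. Day 13 gave 3427, 3762, 3124, 3714 and 3156 RPKM, day 16 gave 3516, 3477 and 3259 RPKM, and day 19 gave 3258, 3719, 4088 and 3875 RPKM. On day 7, 4 of the 5 values lay under every value of days 13, 16 and 19. The ratio of its day medians was 1.79, and 3.14 after TMM scaling.

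ENSBTAT00000001988 (1395 nucleotides) had a day ratio of 1.52 and its widest values early. Day 7 gave 1569, 1312, 3051, 4783 and 2034 RPKM, day 10 ran from 2184 over 2593 to 5748 RPKM, and day 13 gave 3092, 2354, 3837, 5368 and 1275 RPKM. Day 16 gave 1849.6, 2208 and 2376 RPKM and day 19 gave 2492, 1966, 2878 and 2542 RPKM, all inside the range of each earlier day except that 2 of them lay under the day 10 minimum of 2184 RPKM. ENSBTAT00000018491 (578 nucleotides), with a ratio of 1.66 as deposited and 2.46 after TMM scaling, instead had its low values early. It stood at 1709, 3012, 2556, 1468 and 811 RPKM on day 7 and from 734 over 2725 to 3692 RPKM on day 10. On the later days its replicates lay between 1575 and 3655 RPKM.

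ENSBTAT00000044397 (855 nucleotides) and ENSBTAT00000015883 (812 nucleotides) moved together. The first gave 2693, 2359, 2244, 801 and 419.9 RPKM on day 7, and from 374 over 2526 to 3995 RPKM on day 10. On day 13 it gave 2133, 2585, 1395, 2216 and 1793 RPKM, on day 16 it gave 3204, 2335 and 2753 RPKM, and on day 19 it gave 2492, 3789, 1882 and 2863 RPKM. Its low values were all on days 7 and 10, in replicates 4 and 5 of day 7 and in replicates 6 and 7 of day 10. The ratio of ENSBTAT00000015883 to it stayed between 0.899 and 1.10 in the 24 replicates, although each of the pair spanned over 10-fold. Whether the 2 share reads cannot be told from the files, so they may not be separate measurements and their levels are uncertain. With day ratios of 1.29 and 1.25, both would rank among the more even members by day medians and among the least even by replicate. The rank by day medians hung on single replicates. Leaving out 1 replicate gave ratios as high as 1.81 and 1.77, above the members' median of 1.62 with all replicates.

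ENSBTAT00000005600 (1398 nucleotides) had the lowest ratio of day medians, 1.16. Day 7 gave 281, 277, 219, 288 and 240.2 RPKM, and day 10 ran from 172 over 261 to 383 RPKM. Day 13 gave 349, 314, 270.3, 259 and 156 RPKM, day 16 gave 240.4, 386 and 286 RPKM, and day 19 gave 242, 228, 327 and 252 RPKM. No day stood apart, and the lowest and highest values of the series lay on days 13 and 16. With all 28 libraries as labelled, its ratio was 1.5.

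ENSBTAT00000005983, ENSBTAT00000017503, ENSBTAT00000004364 and ENSBTAT00000017710 followed with ratios of 1.18, 1.19, 1.2 and 1.21. After TMM scaling the ratio of ENSBTAT00000004364 was 2.08, past the limit of the rule, and those of the other 3 were 1.63, 1.42 and 1.68. An even median did not mean even replicates. On day 7 ENSBTAT00000004364 (2791 nucleotides) gave 316, 131, 145, 674 and 502 RPKM, an over 5-fold range around a median of 316 RPKM, where the medians of the other days were 315 to 377 RPKM. ENSBTAT00000017503 (3964 nucleotides), by contrast, stayed between 103 and 256 RPKM in all 24 replicates, with day medians of 133 to 159 RPKM. ENSBTAT00000005983 (1363 nucleotides) ran from 107 to 435 RPKM and ENSBTAT00000017710 (1779 nucleotides) from 343 to 1035 RPKM.

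**Figure D2:**
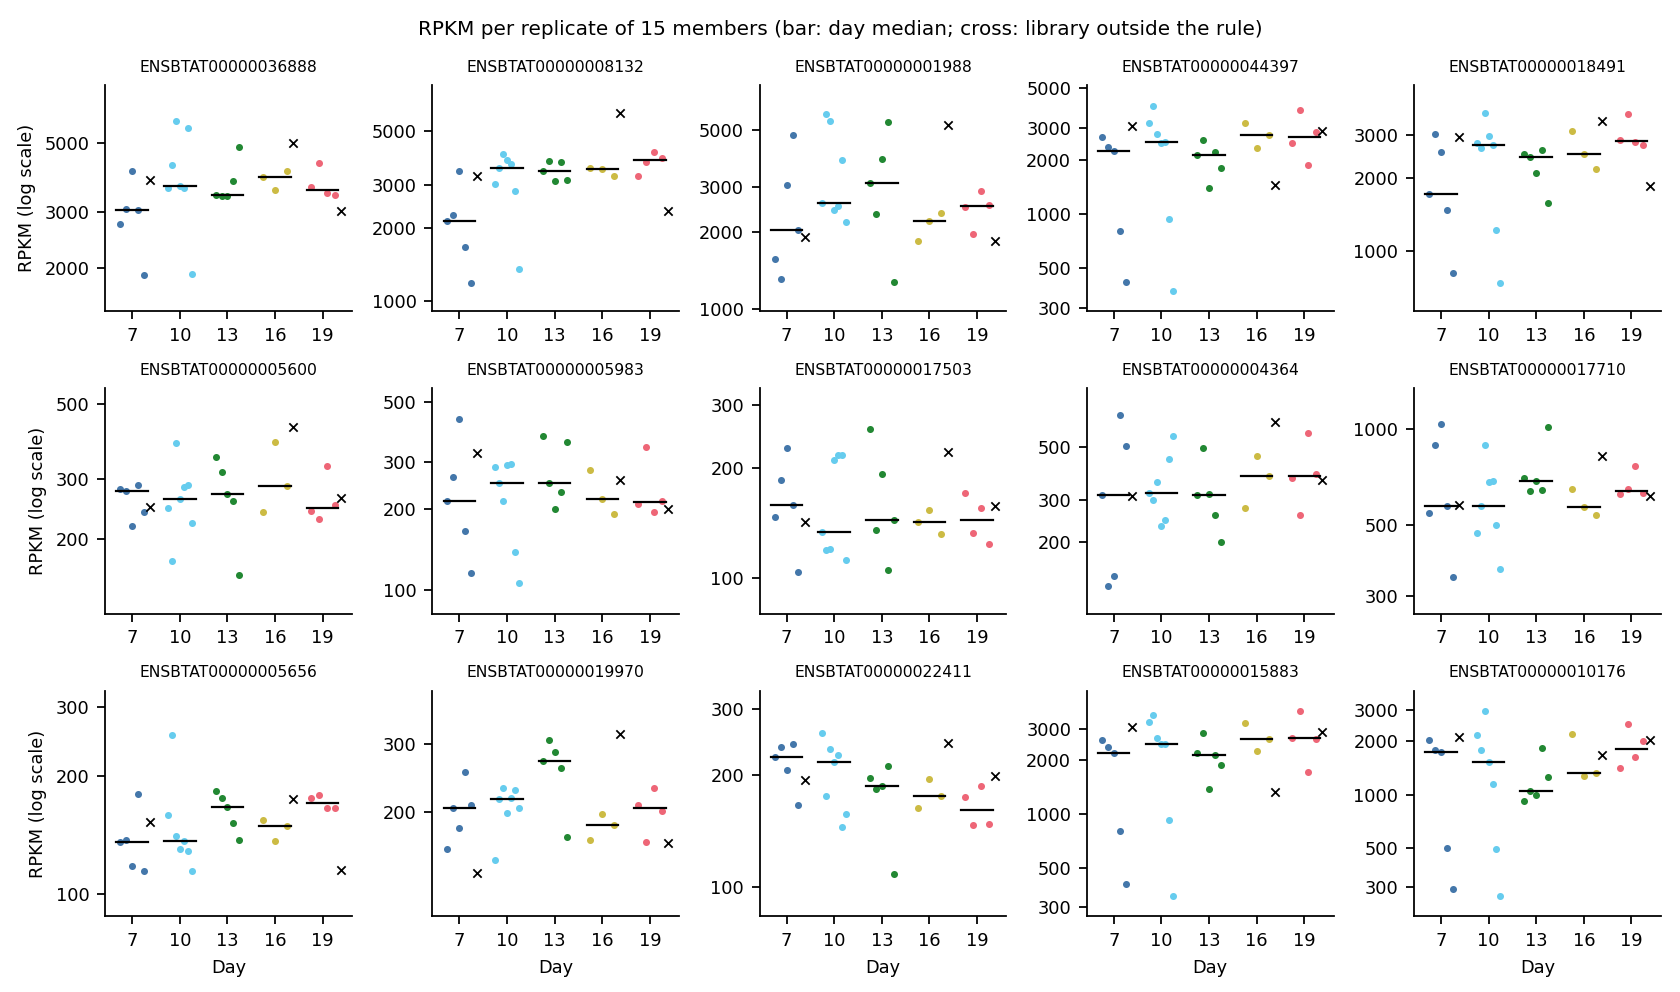
RPKM (log scale, each panel with its own range) of 15 members in each replicate by day; bars are day medians and crosses the 3 libraries whose file title belongs to another day. The upper row holds the 5 most abundant members and the middle row the 5 with the lowest ratio of day medians. The lower row holds members with the smallest or a large spread. ENSBTAT00000035450, which had the largest SD, is not drawn. In ENSBTAT00000044397 and ENSBTAT00000015883 the 4 lowest points are on days 7 and 10, while in ENSBTAT00000005656 nearly all points lie between 114 and 183 RPKM with 1 at 253 RPKM.

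The spread over replicates gave another ranking than the day ratio. Over the 24 replicates the SD of log2 RPKM ran from 0.26 to 0.97 with a median of 0.53, and the highest replicate was 2.05 to 22.1 times the lowest, with a median of 4.23. ENSBTAT00000005656 (3912 nucleotides) had the smallest SD, 0.26. On day 7 it gave 136, 138, 118, 179.9 and 114 RPKM, and on day 10 it ran from 114 over 136 to 253 RPKM. Day 13 gave 183, 176, 167, 152 and 138 RPKM, day 16 gave 154, 136 and 149 RPKM, and day 19 gave 176, 179, 165 and 166 RPKM. Its day medians were 1.26-fold apart, and only the day 10 replicate at 253 RPKM stood off. ENSBTAT00000019970 (3242 nucleotides) and ENSBTAT00000022411 (2695 nucleotides) were next, with SDs of 0.27 and 0.29 and ranges of 150.0 to 307 RPKM and 108 to 259 RPKM.

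The largest SDs belonged to ENSBTAT00000035450 (0.97), ENSBTAT00000010176 (0.92) and ENSBTAT00000015883 (0.91). ENSBTAT00000035450 is the shortest member, at 102 nucleotides, and had as few as 7 reads in a library. It gave 694, 447, 627, 362 and 145 RPKM on day 7, ran from 129 over 305 to 897 RPKM on day 10, and gave 239.8, 707, 372, 367 and 2855 RPKM on day 13. Day 16 gave 976, 273 and 209 RPKM and day 19 gave 361, 745, 335 and 456 RPKM. A single replicate, day 13 replicate 5, stood far above the next highest, 976 RPKM, yet the day medians were within 1.64-fold. ENSBTAT00000010176 (525 nucleotides) gave 2016, 1791, 1739, 497 and 294 RPKM on day 7 and ran from 268 over 1522 to 2959.7 RPKM on day 10. Its later replicates lay between 922 and 2489.5 RPKM, and its day ratio was 1.73 as deposited and 2.26 after TMM scaling.

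The rule caps the ratio between day medians but not the range within a day. The count that follows is therefore favoured by the choice itself, and nothing is read from it. The same count was not made for other transcripts. In all 172 members the widest range among replicates of 1 day was larger than the ratio between day medians. That widest range was found on day 10 in 97 members, day 7 in 42, day 13 in 31, day 19 in 2 and day 16 in 0, and a range widens with the number of replicates, which was 7, 5, 5, 4 and 3 in that order. The highest replicate was over 2 times the lowest in 138, 151, 97, 7 and 27 members for days 7, 10, 13, 16 and 19. The SD does not widen in that way. Its median among members, on the log2(RPKM + 1) scale, was 0.60, 0.58, 0.43, 0.23 and 0.24 for days 7, 10, 13, 16 and 19. Over all tested transcripts the same medians were 0.84, 0.97, 0.56, 0.42 and 0.30, so the later days were tighter there as well. Pooled over days, the median SD within a day was 0.51 in the members, 0.56 in the 105 less even abundant transcripts and 0.82 in all tested, whose levels are far lower. Counting error was small beside this: its median SD over members was 0.04 on the log2 scale, only 1 member had under 10 reads in any library used and 7 had under 30.

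The low values lay in a few libraries. The lowest of the 24 values lay in day 10 replicate 7 for 54 members, in day 7 replicate 5 for 48 and in day 13 replicate 5 for 26. The highest lay in day 10 replicate 3 for 52, in day 13 replicate 4 for 22 and in day 7 replicate 4 for 16. The share of all reads that fell in the 172 members, where each read of a transcript counts, was 11.3% ± 2.56 (SD, n = 5) for day 7, 13.5% ± 3.58 (n = 7) for day 10 and 14.2% ± 1.77 (n = 5) for day 13. For day 16 it was 13.23% ± 0.774 (n = 3) and for day 19 it was 14.4% ± 0.787 (n = 4). The days overlapped. The lowest shares, 7.07% in day 7 replicate 5 and 7.07% in day 10 replicate 7, were those of the libraries rich in the 92-nucleotide transcript. Taken out of the total, that transcript left 10.8% and 11.5% there. The highest share was 18.5% in day 10 replicate 3.

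**Figure D3:**
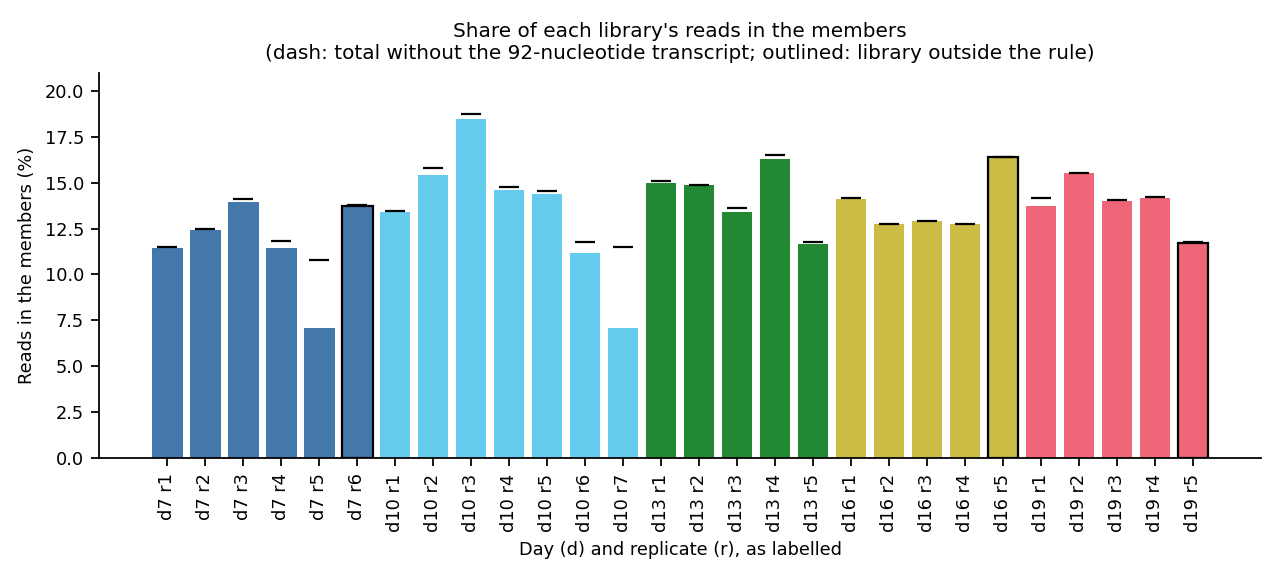
Bars show the percent of each library's reads that fell in the 172 members, by labelled day and replicate; dashes give the percent after the 92-nucleotide transcript is taken out of the total, and outlined bars are the 3 libraries whose file title belongs to another day. Day 7 replicate 5 and day 10 replicate 7 are the lowest at 7.07% each and rise most by that step, to 10.8% and 11.5%.

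Spread differed by transcript length, in values that the rule itself used. Because every replicate had to reach 100 RPKM, a member of low level had little room for low values, and long members were the lower ones. The floor does not bound high values: ENSBTAT00000035450, at a level of 361 RPKM, had the largest SD, 0.97. How much of the relations below the floor fixes was not tested. Split by length, the shortest 58 members (102 to 693 nucleotides) had a median SD of log2 RPKM of 0.63, the middle 57 (694 to 1382 nucleotides) of 0.54 and the longest 57 (1389 to 4446 nucleotides) of 0.45. Spearman's rho between SD and length was -0.58 across the 172 members, which share the same libraries and are not independent. Short members were also the more abundant: the median level was 652 RPKM in the shortest class, 461 in the middle one and 298 RPKM in the longest, with a rho between length and level of -0.41 and between SD and level of 0.45, a sign that the floor favours. The ratio of day medians went with length only weakly, with a rho of 0.16 and class medians of 1.57, 1.62 and 1.68 from short to long.

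**Figure D4:**
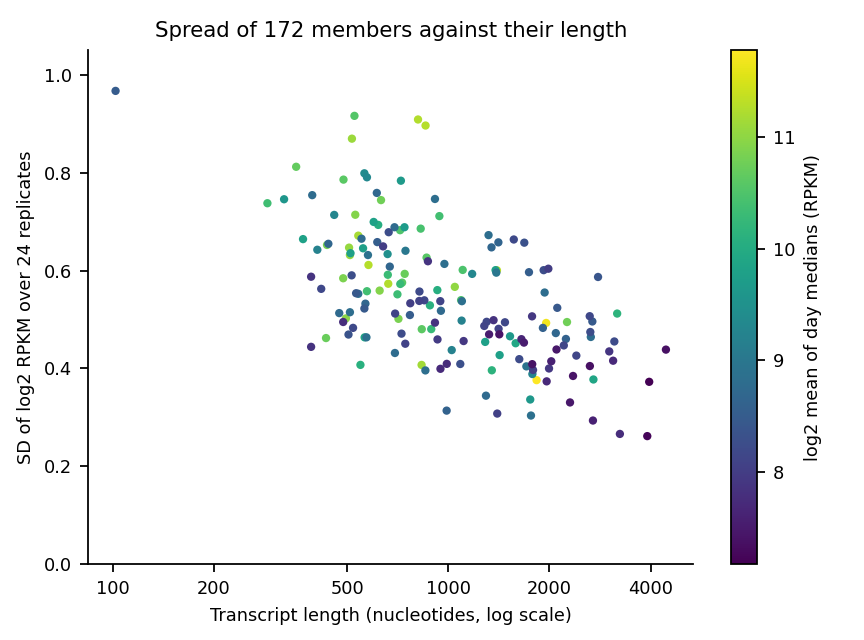
Each point is 1 of the 172 members, with its length in nucleotides on the x axis (log scale), the SD of its log2 RPKM over 24 replicates on the y axis and its level as colour. The SD is lower in longer members (Spearman's rho -0.58), and the shortest member, at 102 nucleotides, has the largest SD, 0.97.

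The difference between short and long members lay in certain libraries. In day 7 replicate 5 the median short member stood 1.34 below its own median over replicates on the log2 scale, and the median long member 0.48 below (-1.34 and -0.48). Day 10 replicate 7 gave -1.33 and -0.52. In these libraries the 92-nucleotide transcript held 34.3% and 38.4% of the reads. Within a library this lowers the RPKM of every other transcript, short or long, by the same factor. The class values were not computed without that transcript. In day 7 replicate 4 and day 10 replicate 6 short members were also low, at -0.66 and -0.52, while long members stood at 0.16 and 0.03. Day 13 replicate 5 gave -0.64 for short and -0.25 for long members. Day 10 replicate 3 went the other way, with short members at 0.70 and long members at 0.11, as did day 13 replicate 4 at 0.48 and 0.12. In the 7 replicates of days 16 and 19 the long class differed from the short one by only -0.17 to 0.08. Without day 7 replicate 5 and day 10 replicate 7 the 3 class medians of the SD became 0.52, 0.43 and 0.41, and rho became -0.41. The part of RNA quality or of library preparation in this pattern was not tested.

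**Figure D5:**
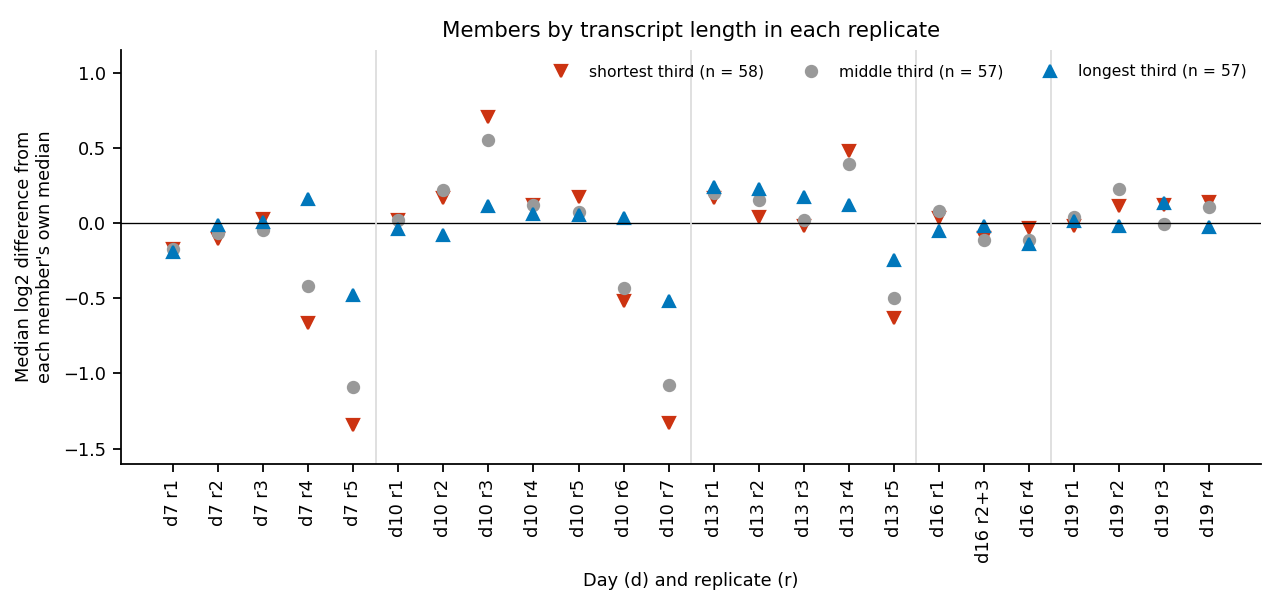
For each replicate, the median log2 difference of members from their own median over 24 replicates, in the shortest (n = 58), middle (n = 57) and longest (n = 57) members. Short members are lowest in day 7 replicate 5 (-1.34) and day 10 replicate 7 (-1.33) and highest in day 10 replicate 3 (0.70), and the classes lie close together on days 16 and 19.

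Most members varied in the same direction from replicate to replicate. Of the 14706 pairs of members, 83.4% had a Pearson correlation of log2 RPKM above 0, with a median of 0.39 over the 24 replicates, which members share. The first axis through the members' values held 49.8% of their variance, and day 7 replicate 5 (0.55) and day 10 replicate 7 (0.55) lay farthest from the rest on it, with day 10 replicate 3 (-0.30) at the other end. These are values as deposited, where a shift of a whole library moves all its transcripts together. The median-of-ratios factors of these 3 libraries were 0.70, 0.64 and 0.99. The part of such shifts was not tested. The same figures were not computed for other transcripts, so they are not read as particular to the members. The SD of the log2 ratio of a pair had a median of 0.60, above the median SD of a member's own log2 RPKM, 0.53. The member with the lowest mean SD of its ratio to all others, a choice made after the values were seen, was ENSBTAT00000003962 (832 nucleotides) at 0.47, with a level of 2263 RPKM and a day ratio of 1.28. The median member stood at 0.60 and ENSBTAT00000035450 highest at 0.99.

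In 6 pairs the log2 ratio had an SD under 0.1, and in 17 under 0.2. The limit of 0.1 falls in a continuous series, with the sixth pair at 0.09 and the next, ENSBTAT00000028655 with ENSBTAT00000047021, at 0.11. ENSBTAT00000022227 and ENSBTAT00000044735 had the same number of reads in 27 of 28 libraries, and 2699 against 2698 in the remaining one. The others were ENSBTAT00000015883 with ENSBTAT00000044397, ENSBTAT00000010082 with ENSBTAT00000057533, ENSBTAT00000001518 with ENSBTAT00000046425, ENSBTAT00000038488 with ENSBTAT00000044271 and ENSBTAT00000010771 with ENSBTAT00000052666. Lengths within a pair were close, such as 1418 and 1322 nucleotides in the first and 812 and 855 in the second. Whether such pairs are isoforms of 1 gene or near-identical copies that share reads cannot be told from the files, so the 172 members are not 172 separate measurements and the levels of these 12, and perhaps of further close pairs, are uncertain.

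For changes between consecutive days, limma was fitted to log2(RPKM + 1) over all 19186 tested transcripts, and a transcript was called at an adjusted p under 0.05 with a log2 change of at least 1 either way. The rule limits the day medians of these same values, so the counts below are set beside the share called among all tested and nothing is read from them. From day 7 to day 10, limma called 0 of the 172 members, where 0.00521% of all tested were called. Limma-voom, run on the recovered reads with library totals scaled by the TMM factors, called 0 there, against 0.334% of all tested. From day 10 to day 13 limma called 0, against 1.19% of all, and limma-voom 0, against 3.29%. From day 13 to day 16 limma called 1, against 7.29%, and limma-voom 1, against 17.9%. From day 16 to day 19 limma called 0, against 0.235%, and limma-voom 1, against 4.54%. By the F test over the 5 days, 1 member (0.581%) had an adjusted p under 0.05 in limma, where 11.1% of all tested transcripts did. In limma-voom 66 members (38.4%) passed, against 29.5% of all, and in limma with TMM scaling 34 (19.8%), against 15.2%. The members' share was below that of all tested transcripts on the deposited scale, and above it in both of these fits, which use the same TMM factors. With median centring it was below again, at 3.49% against 12.1%.

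The median log2 change of the members was 0.25 from day 7 to day 10, 0.13 to day 13, -0.09 to day 16 and 0.10 to day 19, with median standard errors of 0.30, 0.30, 0.38 and 0.40. These errors rest on 1 spread for all days. The members' median SD was 0.60 and 0.58 on days 7 and 10 but 0.23 and 0.24 on days 16 and 19. The last step was thus judged against the wider early spread, and its lack of limma calls does not show it to be unchanged. All tested transcripts had medians of -0.04, 0.07, 0.05 and -0.17. Scaling moved the last step most: with TMM factors the median was 0.50 in the members and 0.15 in all, and with median centring 0.44 and 0.17. Single members ranged from -0.51 to 0.81, from -0.65 to 0.76, from -0.95 to 1.01 and from -0.41 to 0.68 over the 4 steps.

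The member called from day 13 to day 16 was ENSBTAT00000005982. On days 7 and 10 it ran from 269 to 575 RPKM and from 250.2 to 513 RPKM. Day 13 gave 235, 246, 235, 221 and 284 RPKM, day 16 gave 429.6, 602 and 458 RPKM, and day 19 gave 489.9, 404, 544 and 409 RPKM. The values of days 16 and 19 lay above all of day 13 with no overlap, and the log2 change from day 13 to day 16 was 1.01 ± 0.29 (SE). It was 1.04 with TMM factors and 0.92 with median centring, which ends the call. It also was not called when any of day 13 replicates 1 to 4 or any day 16 replicate was left out. This member's day ratio was 1.95, and it was 2.47 with TMM scaling and 2.52 with all 28 libraries as labelled.

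The opposite course was seen in ENSBTAT00000000486, the member nearest the ratio limit. Day 13 gave 262, 243, 246, 295 and 214 RPKM, above day 16 at 145, 124 and 120.1 RPKM and day 19 at 153, 162, 129 and 131 RPKM. Day 7 overlapped both, at 187, 158, 164, 243 and 107 RPKM, and day 10 ran from 118 over 152 to 214 RPKM. Its log2 change from day 13 to day 16 was -0.95 ± 0.27 (SE), just short of the size asked for, and -1.04 with median centring. ENSBTAT00000006847 was the member that passed the F test. It gave 249, 226, 197, 296 and 167 RPKM on day 7, from 153 over 202 to 308 RPKM on day 10 and 265, 227, 180.2, 182 and 219.8 RPKM on day 13. Day 16 followed at 362, 358 and 359.6 RPKM and day 19 at 315, 407, 388 and 442 RPKM, so that both late days lay above all 17 earlier values. Its day ratio was 1.97, and 2.71 after TMM scaling. It did not pass when day 13 replicate 3, any day 16 replicate or any of day 19 replicates 2, 3 and 4 was left out. The switch in RNA preparation lies between these same days, and its part in these 3 courses was not tested.

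Measurements outside the rule came from the 3 libraries with a file title of another day. In day 7 replicate 6 all 172 members were at 100 RPKM or more, and all 172 lay within 2-fold of their median over the 24 replicates. In day 16 replicate 5 all 172 were at the floor and 167 (97.1%) within 2-fold. In day 19 replicate 5, 170 (98.8%) were at the floor and 169 (98.3%) within 2-fold. Against the whole range of the 24 replicates, 2 members lay below it in day 7 replicate 6, 10 above and 1 below in day 16 replicate 5, and 9 below in day 19 replicate 5. The members under the floor were ENSBTAT00000022227 at 97.0 RPKM and ENSBTAT00000052666 at 95.1 RPKM. Of the 105 less even abundant transcripts, 94 (89.5%), 90 (85.7%) and 88 (83.8%) were within 2-fold of their own medians in the same 3 libraries, a lower share in each. That difference was not tested. The 105 were picked for day medians at least 2-fold apart, which by itself favours a lower share there, so nothing is read from it. The median that each value is measured from also includes the values that chose the members.

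Over the members, each of these libraries was nearest to a replicate of a day other than its labelled one. The true day of each was not tested. Day 7 replicate 6 was closest to day 16 replicate 1 (Pearson correlation of log2 RPKM 0.988), day 16 replicate 5 to day 19 replicate 3 (0.967) and day 19 replicate 5 to day 7 replicate 1 (0.982). The share of reads in members was 13.7%, 16.4% and 11.7% in the 3 libraries.

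Choosing anew without each replicate in turn and then reading that replicate gave a second view of the same kind. Without day 10 replicate 7 the rule chose 182 transcripts, of which 171 (94.0%) reached 100 RPKM in it. Without day 7 replicate 5 it chose 189, of which 179 (94.7%) did, and without day 13 replicate 5 it chose 170, of which 166 (97.6%) did. For each of the other 21 replicates the share was at least 98.3%. Without both libraries rich in the 92-nucleotide transcript the rule chose 236 transcripts, 166 of them members.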

How the data were processed

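The authors deposited 1 RPKM value per Ensembl transcript and library. The submitters' processing notes name CASAVA, with no role or version. Aligner, genome build and annotation: not given in the sources used here. The RPKM values, as deposited, were whole reads scaled by length and library total: 100.0% of the nonzero values were whole to within 0.001 of a read, which gave reads, lengths and totals. Intervals were not given, since counting error was small beside the replicate spread. Day groups follow the labels. In 12 libraries the file title is that of another sample, and the 3 with another day's title were left out. Members, comparison groups, named members and alternatives were chosen with earlier results of these data known. Named members are the 5 highest by level, the 5 lowest by day ratio, the 3 with the smallest and the 3 with the largest SD, and the 2 on each side of each limit; members with an adjusted p under 0.05 were added after their values were seen. The gene lists and markers planned were not analysed here, because 0 of 28054 identifiers matched the RefSeq gene table (37063 genes). Changes were fitted with limma 3.58.1 in R 4.3.3 (lmFit and robust eBayes with a trend), using log2(RPKM + 1) and 1 model for all 5 days, for transcripts at 1 RPKM or more in at least 4 replicates, with Benjamini-Hochberg adjustment; the fit was tested on simulated data. P-values measure only the spread between these samples, whose heifers are not named. TMM and median-of-ratios factors were computed from recovered reads.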

Additional observations from a re-analysis of the deposited data

Results flagged for a closer look

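Single replicates far from the rest of their day were looked for in the named members and in the share of reads in members. This was done in groups of 4 to 10 replicates, by Dixon's gap at the 95% level. Named transcripts outside the limits were not searched. Of 92 groups, 11 held one. Chance gives about 1 in 20 in independent groups, but these share libraries and some transcripts were named for their spread over the same replicates, so no number to be awaited by chance can be set beside the 11. Day 13 replicate 5 accounted for 4 of them: ENSBTAT00000036888 stood at 4851 RPKM there, ENSBTAT00000017710 at 1015 RPKM and ENSBTAT00000035450 at 2855 RPKM, each above the other replicates of day 13, and ENSBTAT00000022411 at 108.4 RPKM, below them. Day 19 replicate 2 was high in ENSBTAT00000018491 (3655 RPKM) and ENSBTAT00000005983 (341.4 RPKM). On day 10, ENSBTAT00000005656 was high in replicate 2 at 253.3 RPKM. ENSBTAT00000019970 was low in replicate 1 at 150.0 RPKM, and ENSBTAT00000024299 was low in replicate 7 at 122.8 RPKM. ENSBTAT00000024299 was also high in day 19 replicate 3, at 169.7 RPKM, and ENSBTAT00000018091 in day 7 replicate 4, at 438.2 RPKM.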

How the results depend on the processing

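The number of members followed the limits and the scaling: it was 384 with a floor of 50 RPKM, 81 with 200 RPKM, 57 with day medians within 1.5-fold and 113 with TMM scaling, of which 93 were among the 172. It was larger, 202 and 216, with median-of-ratios scaling and without the 92-nucleotide transcript in the totals. Leaving out 1 replicate gave 160 to 189. Members called from day 13 to day 16 were 2 (1.16%) with all 28 libraries as labelled, beside 8.03% of all tested transcripts. Without 1 replicate they were 0 to 3, beside 2.43% to 9.51% of all. The 3 (1.74%) were found without day 13 replicate 5, beside 8.85% of all. With median centring the 1 called from day 13 to day 16, beside 8.08% of all, was ENSBTAT00000000486, lower on day 16, in place of ENSBTAT00000005982. From day 16 to day 19 limma-voom called 1, ENSBTAT00000014888, beside 4.54% of all. The F test gave 34 members (19.8%) with TMM scaling and 66 (38.4%) with limma-voom, which uses the same TMM factors. Both were above the 15.2% and 29.5% of all tested transcripts. The F test gave 6 with median centring, 3 with all 28 libraries and 5 with day 16 replicates 2 and 3 apart. These were below the shares of all (12.1%, 7.42% and 14.5%). Without 1 replicate it gave 0 to 6, beside 7.72% to 14.1% of all. The 6 (3.49%) were found without day 10 replicate 7, beside 13% of all. In settings added after the data were seen, leaving out day 7 replicate 5 and day 10 replicate 7 gave 9 (5.23%, beside 3072 of 18596 tested transcripts). Leaving out day 13 replicate 5 as well gave 13 (7.56%, beside 3637 of 18428). In that last setting 4 members (2.33%) were called from day 13 to day 16, beside 11.9% of all. The cause of these shifts was not tested. The edgeR alternative was not run. No paired analysis was possible because the labels carry no replicate numbers that join days. Depth limits the shortest member most, with 7 reads in its poorest library.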
